A study of Mus musculus with 16 samples.

Results

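Brown adipose tissue of mice housed at 5 °C was compared with that of mice kept at 30 °C over every gene counted, with attention to the genes outside lipid synthesis, glycolysis and the respiratory chain. The comparison holds 8 of the 16 libraries of the series, 4 per temperature, chosen by sample title and housing temperature. All mice were female wild-type C57BL/6, 16 weeks old, and had lived at 30 °C since birth, in colonies bred there. The group called BAT_30C stayed at that temperature. Mice of the group called BAT_5C left it when 10 to 12 weeks old, spent 2 weeks at 18 °C and ended with 3 weeks at 5 °C. Food was withdrawn from both groups 2 to 3 h before the end. No other treatment or allele was given, and the labels do not tie libraries to single mice, so p-values measure the spread between libraries.

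Brown fat burns fuel to make heat through uncoupling protein 1 of its mitochondria, under the control of noradrenaline from sympathetic nerves, which acts through beta-adrenergic receptors and cyclic AMP. A mouse at 30 °C needs little of that heat, and its brown fat takes on a paler, lipid-filled form. Weeks in the cold enlarge the tissue and its mitochondria, and so draw on the machinery that makes, folds, imports and removes proteins, on iron for heme and iron-sulphur clusters, and on vessels, nerves and immune cells around the adipocytes.

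The 8 libraries held 54264023 to 67127591 counts. The tissue label calls the depot inguinal, and 4 of the 8 libraries (replicates 3 and 4 of BAT_30C, replicates 1 and 2 of BAT_5C) carry a source label that gives the other temperature. Zic1, a marker of classical brown fat, lay at 8.5 to 17.6 CPM (counts scaled to a common library size, here over all 16 libraries) in the 8 BAT libraries and at 0.136 CPM or less in the 8 inguinal white fat libraries, while Hoxc10, a gene of the rear body, had 0 counts in all 8 BAT libraries and 5.76 to 24 CPM in white fat. On that scale Ucp1, the uncoupling protein gene, ranged from 634 to 2019 CPM across BAT_30C and from 12388 to 13787 CPM across BAT_5C, so no library went against its title. Temperature separated the libraries on the first principal component (65.2% of variance). The second (14.5%) set replicate 3 of BAT_30C and replicate 4 of BAT_5C apart from the other 6. Skeletal muscle transcripts moved with it: of the 12 muscle markers tested, 0 rose and 0 fell, and their summed share of counts was 0.0296 to 0.155% in those 6 libraries and 0.00552 and 0.0034% in the 2 that stood apart. The part of muscle transcripts in the results below was not tested, and counts of 3 or more from all 8 libraries are given also for the other 6 alone where they move by more than 1.5 times.

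By the edgeR quasi-likelihood test with Benjamini-Hochberg adjustment (threshold 0.05), 9647 of 16213 genes changed, 59.5% of those tested. Of these 4741 rose (29.2%) and 4906 fell (30.3%), and 3121 (19.2%) changed by 2-fold or more, 1235 of them upwards (7.62%) and 1886 downwards (11.6%). A 4-fold rise was seen in 426 genes (2.63%) and a 4-fold fall in 504 (3.11%), and 91 (0.561%) and 94 (0.58%) passed 16-fold. The 4 values of BAT_5C lay wholly above those of BAT_30C in 4434 genes (27.3%) and wholly below in 4469 (27.6%). These counts are over all genes tested, whatever their adjusted p. These directions are relative to TMM scaling, under which the 16213 log2 fold changes had a median of -0.05. Library totals alone move every value by -0.38, and then 2323 genes rose and 8831 fell, so that 20.8% of calls were rises against 49.1%.

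The direction went with the level and kind of the transcript. Of the 87 genes above 1000 CPM 75.9% rose and 12.6% fell, and of the 1307 genes at 100 to 1000 CPM 59% rose and 20.7% fell. At 10 to 100 CPM the shares were 40.1 and 26.5% of 7026 genes, at 1 to 10 CPM 16.8 and 39.8% of 4385 and below 1 CPM 10.3 and 29.8% of 3408. Long noncoding RNAs fell more often than they rose, 37.3 against 12.3% of 1524, with a median log2 fold change of -0.45. Protein-coding genes were nearly even, with 31.8% of 13903 rising and 29.7% falling.

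**Figure D1:**
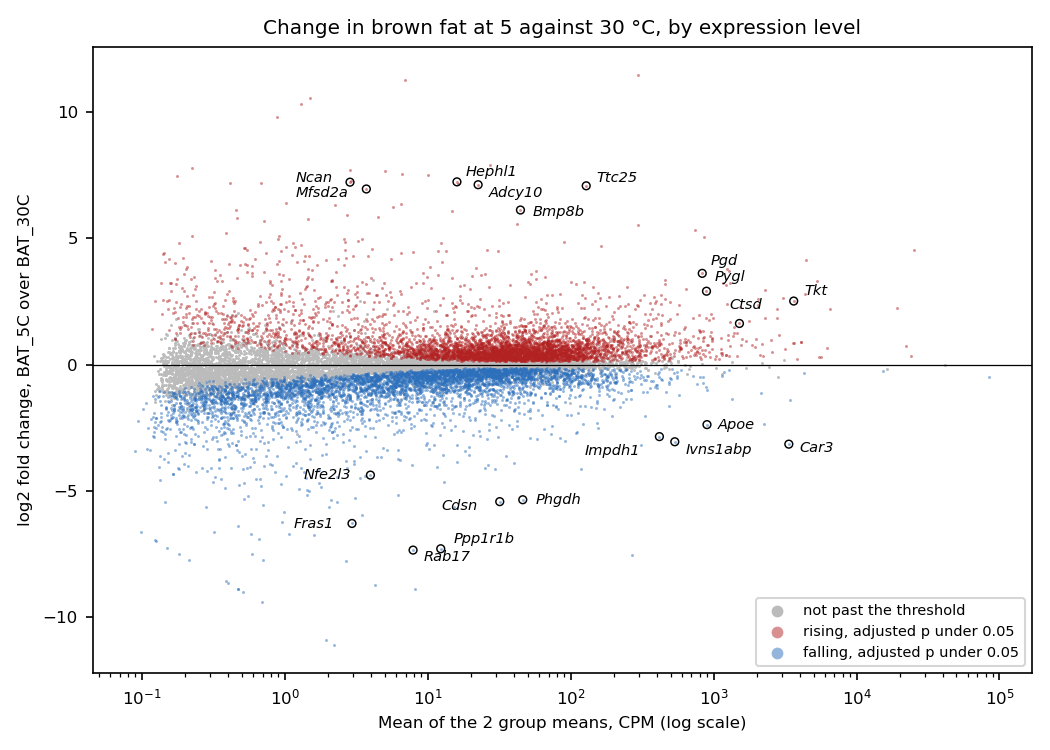
Log2 fold change of BAT_5C over BAT_30C (y axis) against the mean CPM of both groups (x axis, log scale) for the 16213 genes tested, coloured by call, with 20 named genes circled. Above 1000 CPM most points lie above 0, and below 10 CPM most of those past the threshold lie below it.

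Genes were ranked among those past the threshold with at least 5 CPM in the higher group and groups that did not overlap in CPM. The fuel and respiratory chain genes and some described in earlier work on these data were left out. The first of the 12 largest rises so ranked was Hephl1 (ENSMUSG00000031936), whose product is a copper-dependent oxidase of iron. Its level was 0.352, 0.149, 0.0446 and 0.288 CPM in BAT_30C and 28.5, 20, 48.4 and 30.3 CPM in BAT_5C, a rise of 7.24 ± 0.44 on the log2 scale (SE, adjusted p = 1.03e-06). Every cold library stood far above every warm one. Adcy10 (ENSMUSG00000026567), the soluble adenylyl cyclase that makes cyclic AMP in answer to bicarbonate, was at 0.38, 0.177, 0.312 and 0.416 CPM and then at 38.5, 40.8, 46.5 and 53.1 CPM, a rise of 7.12 ± 0.21 (SE, adjusted p = 3.24e-08). This was among the steadiest of the large rises. Bmp8b (ENSMUSG00000002384), a secreted bone morphogenetic protein made by brown adipocytes, was at 3.58, 0.38, 0.714 and 0.272 CPM and then at 60.9, 97, 97.1 and 96.1 CPM (6.12 ± 0.68, adjusted p = 4.38e-05). The first replicate of each group set its spread, and without BAT_30C replicate 1 the rise was 7.60. Mfsd2a (ENSMUSG00000028655), a transporter of lysophosphatidylcholine, went from at most 0.109 CPM to 11.4, 4.46, 3.18 and 10.5 CPM, a rise of 6.96 ± 0.60 (SE, adjusted p = 8.70e-06).

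The other 8 genes of the largest rises came from scattered functions. Ncan, of a brain matrix proteoglycan, rose by 7.23 to 4.53 to 7.35 CPM, and Adprhl1, of an ADP-ribosylhydrolase-like protein of the heart, by 7.15 to 23.7 to 39.1 CPM. Ttc25, of a protein that docks dynein in cilia, rose by 7.08, from 1.28 to 2.66 CPM up to 141 to 375 CPM. The ketone body enzyme gene Bdh1 rose by 6.36 and varied most among cold libraries, from 4.3 to 20.9 CPM. Kcng4, of a modifier subunit of potassium channels, rose by 6.24, Slco4a1, of an organic anion transporter that carries thyroid hormone, by 6.09, Slc15a5, of the peptide transporter family, by 5.91 and Tjp3, of a tight junction scaffold, by 5.86. That the groups did not overlap in these 8 was a condition of the ranking. Of the genes left out at that level, 6 rose more than Hephl1 and 4 fell more than Rab17 (Elovl3, Rspo4, Ptprn2, Atp4b, Cyp1a1 and Acot12; Akr1cl, Cdhr5, Prr32 and Nnat).

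The first of the falls ranked in the same way was Rab17 (ENSMUSG00000026304), a small GTPase of vesicle traffic in polarised cells, at 14.1, 14.1, 18.7 and 15.8 CPM in BAT_30C and 0.021, 0.266, 0.0342 and 0.0369 CPM in BAT_5C. It fell by 7.34 ± 0.46 (SE, adjusted p = 1.07e-06), and by 8.88 without BAT_5C replicate 2, the highest of the cold libraries. Ppp1r1b (ENSMUSG00000061718), a protein phosphatase 1 inhibitor switched on by protein kinase A, was at 55.5, 17.1, 14.1 and 11.1 CPM and then at 0.111 to 0.171 CPM (-7.29 ± 0.68, adjusted p = 1.38e-05). Its warm value rested in part on replicate 1, without which the change was -6.48. Anxa8 (ENSMUSG00000021950), of an annexin, was at 25.2, 38.7, 23.9 and 32.4 CPM against 0.756, 0.582, 0.752 and 0.314 CPM (-5.64 ± 0.26, adjusted p = 2.41e-07). Phgdh (ENSMUSG00000053398), the first enzyme of serine synthesis, was at 80, 96.2, 107 and 77.4 CPM against 3.51, 1.8, 2.67 and 0.924 CPM (-5.35 ± 0.33, adjusted p = 1.10e-06). Of its 31-base words 55.8% also occur in other annotated genes, most of all in a pseudogene counted at 0.133 CPM. Some Phgdh reads may therefore be lost or shared.

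Several of the remaining falls belong to genes best known from skin, nerve or dividing cells. Cdsn, of the skin adhesion protein corneodesmosin, was steady at 60.3 to 63.3 CPM in BAT_30C and fell by 5.43 (by 6.48 without BAT_5C replicate 1, which held 3.91 CPM against at most 1.2 CPM in the others). The log2 fold change was -6.29 for Fras1, of a basement membrane protein, -5.95 for Cpne9, of a copine, -5.18 for Spag5, of a spindle protein, and -4.65 for the Rab11 effector gene Rab11fip4. It was -4.51 for Nrxn2, of a synaptic adhesion protein, -4.40 for the activity-regulated gene Arc (-5.05 without BAT_5C replicate 2) and -4.38 for the stress-response transcription factor gene Nfe2l3. The adjusted p of these 8 genes ran from 1.80e-07 to 1.65e-04, and in none did the groups overlap, as the ranking required.

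A few genes were near absence at one temperature. In BAT_30C, 5 genes had at most 3 counts over the group and at least 1 CPM in BAT_5C, namely Tacr2, Rspo4, Ttc22, Dmrtc1a and 4930461G14Rik. They were chosen after their values were seen. Tacr2, the receptor of the neuropeptide neurokinin A, had 0 counts in BAT_30C and 398 in BAT_5C. The reverse held for 8 genes, among them Il22ra2, a decoy receptor of interleukin 22, with 381 counts at 30 °C and 0 at 5 °C.

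Ranked by CPM gained under the same exclusions, the leading genes belong to the pentose phosphate pathway, glutamine and phospholipid synthesis, glycogen, lysosomes, iron storage and mitochondrial upkeep. Tkt, the transketolase of the pentose phosphate pathway, went from 1212, 1071, 957 and 1084 CPM to 5907, 5681, 6211 and 6939 CPM (2.52 ± 0.10, adjusted p = 7.56e-08), and Pgd, which makes NADPH in the same pathway, from 96.9 to 196 CPM up to 1372 to 1780 CPM. Both sets of libraries lay far apart. The glutamine synthetase gene Glul rose from 573 to 996 CPM up to 2389 to 3008 CPM, and Chpt1, which makes phosphatidylcholine, from 598 to 643 CPM up to 1922 to 2115 CPM. The lysosomal proteases Ctsd and Ctsb rose by 1.63 and 0.95, the ferritin heavy chain Fth1 by 1.27, the inner mitochondrial membrane protein Ghitm by 1.25 and the mitochondrial chaperone Hspa9 by 1.15. Glul and Ctsd share 19.7 and 33.2% of their 31-base words with other annotated genes.

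The first gene by CPM lost was Car3 (ENSMUSG00000027559), a carbonic anhydrase abundant in fat, at 6466, 5766, 6615 and 5298 CPM in BAT_30C and at 1066, 535, 755 and 365 CPM in BAT_5C (-3.15 ± 0.29, adjusted p = 1.42e-05). The cold values spread widely, yet all lay well under the warm ones. Gpx3, the extracellular glutathione peroxidase, fell by 1.40, the complement protease Cfd (adipsin) by 2.34, the lipid carrier Apoe by 2.38 and the hormone gene Adipoq by 0.88. Within the cell, Gsn, which severs actin, fell by 1.35, the kelch protein gene Ivns1abp by 3.06, the guanine nucleotide enzyme Impdh1 by 2.85, Sh3pxd2a, of an adaptor of actin-rich protrusions, by 1.02 and Coq8a, needed to make coenzyme Q, by 1.12. Ivns1abp was tight in BAT_5C (103 to 120 CPM against 805 to 1116 CPM), whereas Impdh1 at 30 °C fell into pairs of about equal value, 523 and 522 CPM in replicates 1 and 3 and 944 CPM in replicates 2 and 4.

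**Figure D2:**
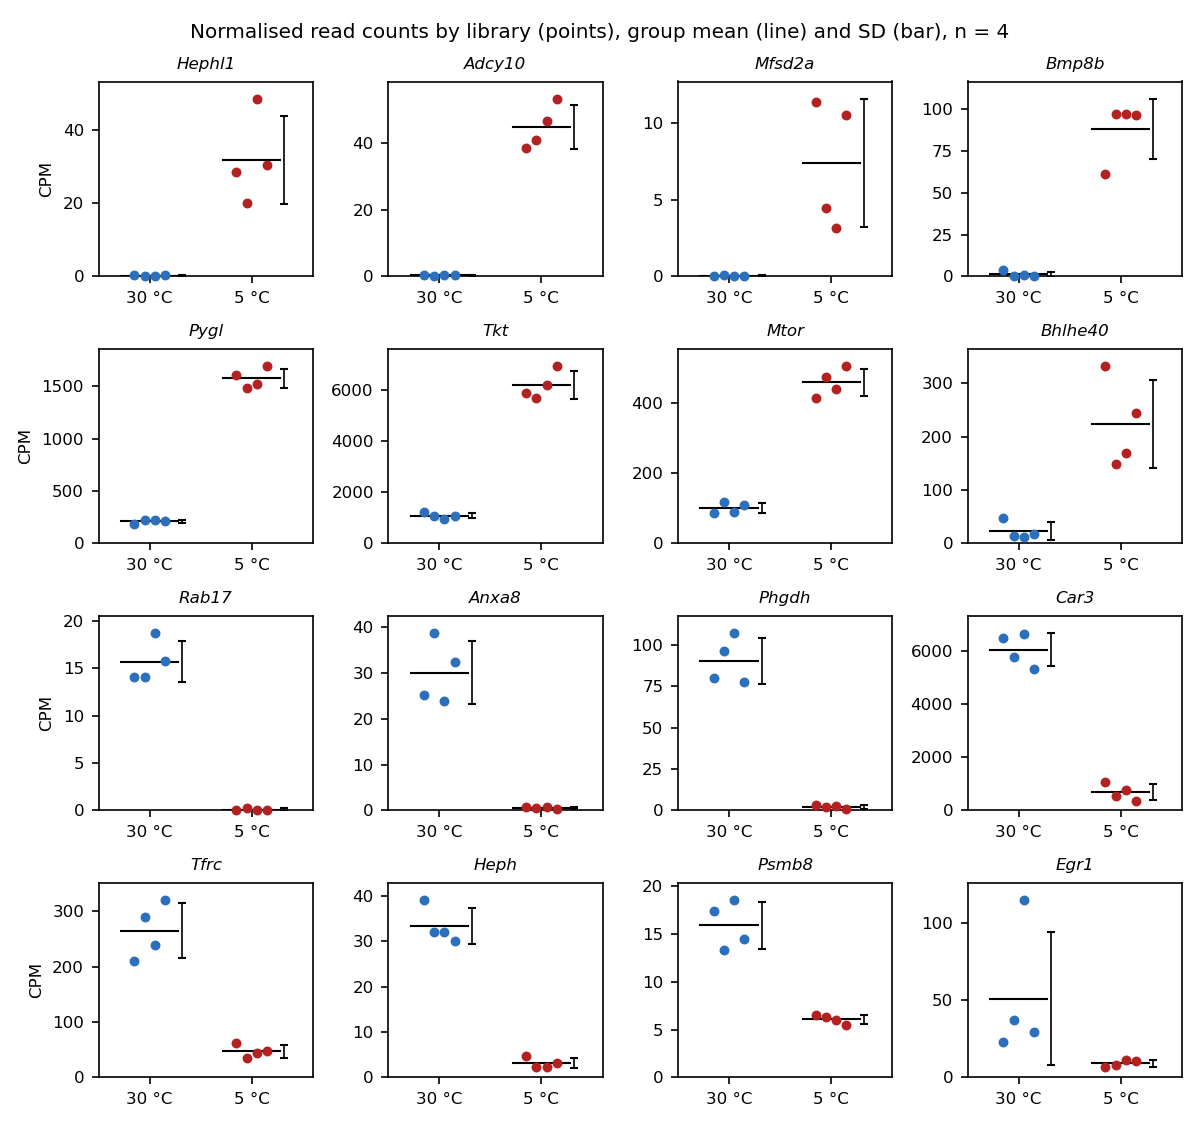
CPM of 16 genes (y axis, from 0) in each library (points) at 30 and 5 °C, with the group mean (line) and SD (bar), n = 4. The groups do not overlap in any of the 16, which the ranking required of those named by rank. Egr1 shows 1 warm library, replicate 3, at 115 CPM against 23.1 to 37.3 CPM in the others.

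Families of protein synthesis differed. Cytosolic ribosomal proteins, which build the ribosomes of the cytoplasm, fell in 76 of 87 tested members and rose in 4, with a median log2 fold change of -0.61 (-0.05 over all genes). Under library totals 81 fell, with a median of -0.99. Together they took 1.78, 1.8, 1.91 and 1.72% of the counts in BAT_30C and 0.95, 0.882, 0.914 and 0.851% in BAT_5C. Rpl27a fell by 1.34, Rps4x by 1.06 and Rps3a1 by 1.02, in each case with all 4 cold libraries below all warm ones. The exceptions included Rpl39l, a copy known from the testis, which rose by 2.20. Another was Rps4l, a relative of Rps4x annotated as a transcribed processed pseudogene, which rose by 1.23. Many of these genes have processed copies elsewhere in the genome (18.9 to 76.9% of the 31-base words of the 3 named falls are shared), so single values are less certain than the family's count.

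Under TMM scaling, other cytosolic families of synthesis had more members rising than falling. Even so, translation initiation and elongation factors together took a lower share of counts in the cold. It was 1.1 to 1.12% in BAT_30C and 0.896 to 0.936% in BAT_5C. Translation initiation and elongation factors rose in 29 of 66 and fell in 11 (median 0.14; under library totals 14 rose and 35 fell, median -0.24), and cytosolic tRNA synthetases rose in 10 of 20 and fell in 2 (median 0.29; 4 and 9, median -0.09).

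The mitochondrial ribosome, which translates only the genes of the mitochondrial genome, went up on this scale. Of its 77 tested proteins 60 rose and 1 fell (2 without BAT_5C replicate 3), with a median of 0.37. Under library totals 29 rose and 22 fell and the median was -0.01. Their share of counts was 0.358 to 0.375% in BAT_30C and 0.382 to 0.405% in BAT_5C, without overlap. Mrpl50 went from 38.9 to 42.9 CPM up to 101 to 111 CPM (1.36 ± 0.05, adjusted p = 1.01e-07), Mrps27 rose by 1.14, and the single fall was of Mrps9, by 0.41. The mitochondrial tRNA synthetases, which charge tRNAs for that ribosome, rose in 13 of 17 and fell in 1 (median 0.58; under library totals 9 rose and 4 fell, median 0.20). Cars2, the cysteine enzyme, went from 13.6 to 15.8 CPM up to 54.1 to 64.3 CPM.

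Chaperones and proteases of the mitochondrion rose in 17 of 21 and fell in 0 (median 0.57; under library totals 12 rose and 4 fell, median 0.19). Lonp1, the matrix protease, rose by 1.14 and Pmpcb, which removes import signals, by 1.32. Proteins that shape the inner membrane and fuse or divide mitochondria rose in 23 of 26 and fell in 0 (median 0.60; under library totals 16 rose and 3 fell, median 0.22). Letm1 (ENSMUSG00000005299), an inner membrane protein of ion exchange, was at 106, 116, 96.8 and 116 CPM and then at 747, 718, 664 and 846 CPM (2.77 ± 0.09, adjusted p = 4.66e-08). The cristae organiser Immt rose by 1.03 and the outer membrane protein Mtch2 by 1.31, both far outside the spread between libraries. Enzymes that make coenzyme Q, heme and iron-sulphur clusters rose in 33 of 38 and fell in 3 (median 0.53; under library totals 20 rose and 6 fell, median 0.15), and Bola3 rose by 1.06 and Coq3 by 1.23. Their summed share of counts was lower in the cold, at 0.539 to 0.619% in BAT_30C and 0.387 to 0.41% in BAT_5C. Alas1, the first enzyme of heme synthesis, was among the 3 falls, at 337 to 398 CPM in the warm libraries and 214 to 284 CPM in the cold ones (-0.53 ± 0.09, adjusted p = 8.26e-04).

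Protein quality control in the cytosol moved with the mitochondrial sets. Cytosolic heat shock proteins, which refold damaged proteins, rose in 15 of 19 and fell in 0, with a median of 0.80 (under library totals 10 rose and 2 fell, median 0.42). Their summed shares of counts overlapped, at 0.243 to 0.318% in BAT_30C and 0.302 to 0.441% in BAT_5C. Hspb8, a small heat shock protein that works with autophagy, was at 14.4, 10.2, 8.11 and 11.3 CPM and then at 136, 98, 134 and 122 CPM (3.47 ± 0.18, adjusted p = 3.92e-07), and Hspa4l rose by 1.54. Proteasome subunits, which form the barrel that degrades tagged proteins, rose in 35 of 46 and fell in 6 (median 0.43; under library totals 18 rose and 14 fell, median 0.05). Psmc4, of the cap, rose by 1.23. The catalytic subunits split by type. Psmb5, of the standard barrel, rose by 0.81, whereas its counterpart of the immunoproteasome Psmb8 was at 17.4, 13.3, 18.5 and 14.4 CPM and then at 6.55, 6.29, 6.02 and 5.45 CPM (-1.39 ± 0.12, adjusted p = 8.14e-06). The other immunoproteasome subunits Psmb9 and Psmb10 fell by 1.08 and 1.02, and the activator subunit Psme1 by 0.83. In the endoplasmic reticulum, where secreted proteins fold, 9 of 22 folding genes rose and 2 fell, with a median of 0.04 that turned to -0.33 under library totals (4 and 15). Manf, a folding factor that cells also release, rose by 1.17 and Xbp1, a regulator of the folding response, fell by 0.79. Psmb5 shares 71.7% of its 31-base words with other annotated genes.

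Lysosomal proteins rose in 20 of 30 and fell in 3 (median 0.50; under library totals 13 rose and 10 fell, median 0.12; 1 fell without BAT_30C replicate 2), and took 0.69, 0.695, 0.689 and 0.691% of counts in BAT_30C against 0.976, 0.962, 0.928 and 0.947% in BAT_5C. Ctsz, a lysosomal carboxypeptidase, rose by 2.54, from 76.2 to 99.7 CPM up to 430 to 572 CPM, and the acid lipase Lipa by 1.65. The V-ATPase, the pump that acidifies lysosomes, rose in 16 of 20 subunits and fell in 3 (median 0.63; 13 and 5 under library totals, median 0.25). Atp6v0a2 rose by 1.40 and Atp6v1h by 0.95, whereas Atp6v1c2, a minor variant, fell by 4.27, from 1.86 to 3.24 CPM down to 0.168 CPM or less. Autophagy genes, which deliver cell parts to lysosomes, rose in 30 of 35 and fell in 2 (median 0.48; under library totals 11 rose and 8 fell, median 0.10). Among them Atg13 rose by 1.05 and Bnip3l, a receptor for the removal of mitochondria, by 0.72.

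**Figure D3:**
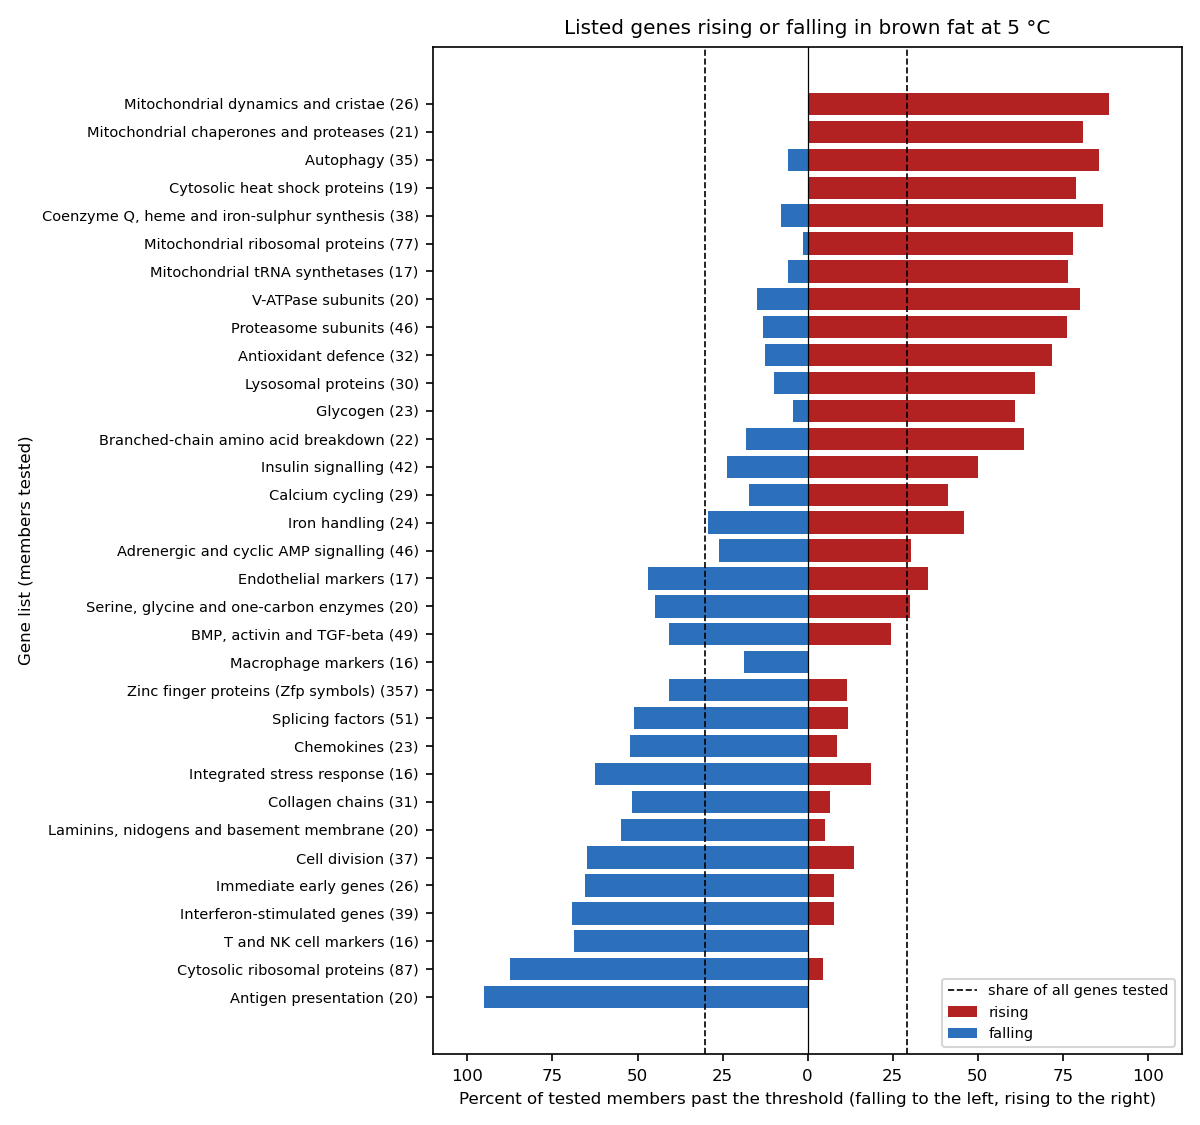
Percent of tested members of 33 gene lists (y axis, members tested in brackets) that rose (right) or fell (left) past an adjusted p of 0.05. Dashed lines mark the shares of all genes, 29.2% rising and 30.3% falling. Mitochondrial upkeep, autophagy and chaperones lie at the top and antigen presentation and cytosolic ribosomal proteins at the bottom. Some genes belong to several lists.

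Iron genes changed in both directions, with 11 of 24 rising and 7 falling and a median of 0.22 that turned to -0.16 under library totals (9 and 12). Pairs of relatives moved in opposite directions. Of the oxidases that load iron for export, Hephl1 rose as above while Heph fell from 39, 31.9, 32 and 30 CPM to 4.64, 2.38, 2.31 and 3.1 CPM (-3.42 ± 0.21, adjusted p = 1.13e-06). Of the transferrin receptors, Tfrc, the main route of iron uptake, was at 210, 290, 239 and 320 CPM and then at 61.9, 35.1, 43.5 and 47 CPM (-2.50 ± 0.19, adjusted p = 3.43e-06). Its relative Tfr2, an iron sensor, was at 0.384 to 1.5 CPM and then at 19.1, 20.7, 30.3 and 25.4 CPM (4.81 ± 0.35, adjusted p = 2.90e-06). In neither pair did the groups overlap. Storage rose, with Fth1 at 844 to 890 CPM and then 1881 to 2223 CPM. Ftl1, the light chain, named after its values were seen, rose by 0.79, though 57.7% of its 31-base words occur in other genes. The metalloreductase Steap4 fell by 1.48 and the hemochromatosis gene Hfe rose by 0.80.

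Antioxidant genes rose in 23 of 32 and fell in 4 (median 0.51; under library totals 15 rose and 9 fell, median 0.13), with Msrb1, which repairs oxidised methionine, up by 2.20, the sulfiredoxin gene Srxn1 by 1.68 and Gclm, of glutathione synthesis, by 1.43. Gpx3, above, was among the 4 that fell, and the summed share of the list was lower in the cold, at 1.15 to 1.37% of counts in BAT_30C and 0.865 to 0.968% in BAT_5C. Carbonic anhydrases, which interconvert carbon dioxide and bicarbonate, were even at 4 rising and 4 falling of 12, near the shares of all genes (median -0.05, and -0.44 under library totals). Car3 fell as above, Car2 went from 41.5 to 47.3 CPM down to 17.6 to 21 CPM (-1.19 ± 0.07, adjusted p = 7.95e-07), and Car1, the form known from red blood cells, fell by 5.34, from 0.705 to 1.33 CPM down to 0.042 CPM or less.

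Of the 23 genes that make or break down glycogen, the store of glucose, 14 rose and 1 fell, with a median of 0.70 (under library totals 12 rose and 4 fell, median 0.32). Pygl (ENSMUSG00000021069), the liver form of the phosphorylase that breaks glycogen down, was at 187, 220, 219 and 213 CPM and then at 1601, 1485, 1518 and 1689 CPM (2.91 ± 0.08, adjusted p = 2.41e-08). The brain form Pygb was the 1 that fell, from 214 to 248 CPM down to 74.2 to 95.4 CPM (-1.45 ± 0.09, adjusted p = 8.79e-07). Genes of synthesis rose too, the branching enzyme Gbe1 by 2.02 and Ugp2, which makes UDP-glucose, by 2.35. Phkb, a subunit of the kinase that activates the phosphorylase, rose by 1.28.

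Amino acid metabolism divided. Enzymes that break down branched-chain amino acids rose in 14 of 22 and fell in 4 (median 0.43; under library totals 9 rose and 7 fell, median 0.04). Pcca, of propionyl-CoA carboxylase, went from 172 to 182 CPM up to 641 to 785 CPM (1.96 ± 0.07, adjusted p = 7.08e-08), Mccc1, of the leucine pathway, rose by 1.43 and Hsd17b10, of the isoleucine pathway, fell by 0.74. Serine, glycine and one-carbon enzymes rose in 6 of 20 and fell in 9 (median -0.39, and -0.77 under library totals). Within serine synthesis itself, Phgdh and Psat1, the first enzymes of the route, fell by 5.35 and 1.21, while Psph, the last, rose by 1.89, from 11.3 to 14.2 CPM up to 41.3 to 52.4 CPM. Shmt1, Mtr and the mitochondrial folate enzyme Aldh1l2 fell by 1.12, 1.69 and 2.58. Genes of the integrated stress response, by which stressed cells restrain protein synthesis, fell in 10 of 16 and rose in 3. Their median was -0.57, and -0.95 under library totals. Phgdh and Psat1 belong to this list as well as to the serine list. Atf5, a transcription factor of that response, rose by 1.92, from 76.2 to 88.8 CPM up to 280 to 326 CPM. Among amino acid transporters 9 of 36 rose and 16 fell (median -0.39, and -0.77 under library totals), with log2 fold changes of -3.26 for Slc7a8 and 1.80 for Slc38a10.

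Receptors and enzymes of adrenergic and cyclic AMP signalling changed in both directions, 14 of 46 rising and 12 falling, near the shares of all genes, with a median of 0.01 that turned to -0.36 under library totals (6 and 27). Adcy3, an adenylyl cyclase, was at 50.6, 96, 61.2 and 86.3 CPM and then at 339, 404, 288 and 377 CPM (2.26 ± 0.20, adjusted p = 1.05e-05). Pde7b, which degrades cyclic AMP, rose by 2.61. Adcy9, another cyclase, fell from 36.8 to 43.7 CPM down to 16.5 to 22.7 CPM. The receptor gene Adra1d fell by 1.61 and the receptor-silencing arrestin Arrb1 by 0.65. Immediate early genes, which respond to stimuli within minutes, fell in 17 of 26 and rose in 2 (median -0.94, and -1.31 under library totals). Myc fell by 1.87, Zfp36 by 1.19 and Ier2 from 15.4 to 23.1 CPM down to 8.37 to 10.1 CPM, whereas Nr4a2 and Ier3 rose by 1.35 and 2.10. The rise of Ier3 was 1.43 without BAT_5C replicate 1, which held 25 CPM against 6.04 to 9.9 CPM. Egr1, named after its values were seen, was at 23.1, 37.3, 115 and 29.2 CPM in BAT_30C and at 6.45, 7.92, 11 and 10.9 CPM in BAT_5C. It fell by 2.49, and by 1.69 without BAT_30C replicate 3.

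Among regulators of transcription the clock genes rose in 9 of 25 and fell in 3, with a median of 0.13 that turned to -0.25 under library totals (5 and 11). The falls numbered 6 without BAT_5C replicate 1, 1 without BAT_5C replicate 4 and 1 in the 6 libraries with muscle transcripts. The repressor Bhlhe40 was at 48.3, 13.6, 12.6 and 17.7 CPM and then at 332, 149, 170 and 244 CPM (3.28 ± 0.47, adjusted p = 2.36e-04, and 3.95 without BAT_30C replicate 1). Nr1d1, of the receptor Rev-erb alpha, rose by 0.77. Of 47 regulators of fat cell lineage 11 rose and 14 fell, no more than the shares of all genes (median 0.03; under library totals 7 rose and 23 fell, median -0.33). The nuclear receptor Esrra, which drives mitochondrial genes, rose by 1.01, and Cebpa and Ebf1, which maintain fat cell identity, fell by 1.07 and 0.53. Zinc finger genes with Zfp symbols fell in 146 of 357 and rose in 41 (median -0.21; 241 fell and 10 rose under library totals), with Zfp651 down by 1.59 and Zfp106, at 99.4 to 129 CPM in BAT_30C, up by 1.31. Splicing factors, which join exons, fell in 26 of 51 and rose in 6 (median -0.15; under library totals 49 fell and 0 rose, and 3 rose in the 6 libraries with muscle transcripts). Hnrnpa1 fell by 1.06, and it shares 29.3% of its 31-base words with other genes.

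Secreted factors of fat rose in 19 of 52 and fell in 13 (median 0.09; under library totals 14 rose and 22 fell, median -0.28). Their summed share of counts was lower in the cold, at 0.914 to 1.26% in BAT_30C and 0.342 to 0.439% in BAT_5C. Fndc5, the precursor of irisin, was at 2.17, 1.34, 1.04 and 2.03 CPM and then at 19.4, 19.8, 16.7 and 16.9 CPM (3.47 ± 0.22, adjusted p = 1.17e-06). The groups lay far apart and the cold values were tight. Fgf9, a growth factor, rose by 3.54 to 1.26 to 2.56 CPM, the prostaglandin D synthase Ptgds by 3.03 and the phospholipid transfer protein Pltp by 1.02, while Angptl2 fell by 0.96. In BMP, activin and TGF-beta signalling 12 of 49 rose and 20 fell (median -0.17; under library totals 6 rose and 33 fell, median -0.54). Against the rise of the ligand Bmp8b, the ligand Gdf5 was at 9.27, 13, 12 and 12 CPM and then at 1.2, 0.466, 0.77 and 1.05 CPM (-3.74 ± 0.26, adjusted p = 2.12e-06), and the signal carrier Smad1 fell by 1.17.

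Insulin signalling genes rose in 21 of 42 and fell in 10 (median 0.23, turning to -0.14 under library totals, where 5 rose and 18 fell; 5 fell in the 6 libraries with muscle transcripts). Mtor (ENSMUSG00000028991), the growth kinase of the pathway, was at 87.2, 118, 89.1 and 109 CPM and then at 415, 475, 441 and 505 CPM (2.19 ± 0.11, adjusted p = 3.96e-07). Deptor, an inhibitor bound to that kinase, rose with it by 1.85, from 144 to 195 CPM up to 558 to 721 CPM. Other members moved apart, with log2 fold changes of -1.39 for the receptor Igf1r, -1.10 for the adaptor Irs1 and -2.82 for the ubiquitin ligase Cbl. The insulin receptor gene Insr, named after its values were seen, rose by 0.36, from a mean of 107 CPM to 137 CPM (adjusted p = 0.0047). Calcium cycling genes rose in 12 of 29 and fell in 5 (median 0.31; 7 and 7 under library totals, median -0.06). Ryr2, the calcium release channel of heart muscle, was at 0.163, 0.136, 0.327 and 0.24 CPM and then at 4.62, 5.46, 4.91 and 5.15 CPM (4.54 ± 0.26, adjusted p = 6.88e-07). Atp2b4, a pump that expels calcium, fell by 1.69. Of 7 creatine genes 1 rose, the phosphatase Alpl, by 1.95, and 2 fell, among them the creatine transporter Slc6a8 by 1.20. Potassium channels rose in 8 of 45 and fell in 11 (median -0.31; 5 and 21 under library totals, median -0.70), with Kcng4, above, among the rises. The counts of both lists are under the shares of all genes (29.2% rising and 30.3% falling).

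Genes of antigen presentation, which show peptides to T cells on MHC molecules, fell in 19 of 20 and rose in 0, with a median of -0.78 (-1.16 under library totals). Their share of counts was 0.289, 0.24, 0.289 and 0.25% in BAT_30C and 0.133, 0.146, 0.14 and 0.0994% in BAT_5C. H2-D1, a heavy chain, fell by 0.80 and H2-Q4 by 1.15, though these genes share 26.7 and 38.4% of their 31-base words with relatives. B2m, the common light chain, named after its values were seen, was at 651, 566, 658 and 584 CPM and then at 387, 404, 392 and 273 CPM (-0.76 ± 0.12, adjusted p = 4.65e-04). Interferon-stimulated genes fell in 27 of 39 and rose in 3 (median -0.76). Their summed shares of counts overlapped, at 0.134 to 0.181% in BAT_30C and 0.14 to 0.166% in BAT_5C. Ddx58 and Ifih1, sensors of foreign RNA, fell by 1.13 and 1.11, and the chemokine Cxcl9 by 1.33. Ifi27, at 634 to 733 CPM in BAT_30C, was 1 of the 3 that rose, to 1216 to 1298 CPM (0.92 ± 0.06, adjusted p = 1.99e-06). Among chemokines 12 of 23 fell and 2 rose, and Cxcl12 rose by 1.43. The summed share of the chemokine list was higher in the cold, at 0.0278 to 0.0293% in BAT_30C and 0.032 to 0.0427% in BAT_5C.

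Many promoters of these genes carry the letters of the interferon-stimulated response element (ISRE), which factors activated by interferon bind. The letters TTTC, any 2 bases and TTTC again, read on both strands, occurred in 3.2% of the 11531 promoter windows of tested genes. Over all 27025 promoter windows the share was 3.49%. It was 5.29% in the 1191 of genes that fell 2-fold or more and 1.79% in the 838 of genes that rose as much. Among the 304 of genes that fell 4-fold or more it was 2.96%, under that of all tested genes. Of 34 promoters of genes that fell in the interferon and antigen presentation lists 15 held the letters (44.1%), and so did 3 of 7 that did not fall (42.9%). The 4 windows below, of falling genes on these lists with a match and the smallest adjusted p, run from 250 bases before to 50 after the start site (RefSeq, GRCm38.p6), and capitals mark the match. They were chosen after the values were seen. The match begins 139 bases before the start in B2m and 213 before it in Cxcl10 (which fell by 1.90), and 2 and 32 bases after it in Ddx58 and Ifih1. The windows are chr2:122147437-122147736 on the plus strand for B2m, chr5:92348840-92349139 on the minus strand for Cxcl10, chr4:40239776-40240075 on the minus strand for Ddx58 and chr2:62646206-62646505 on the minus strand for Ifih1.
B2m: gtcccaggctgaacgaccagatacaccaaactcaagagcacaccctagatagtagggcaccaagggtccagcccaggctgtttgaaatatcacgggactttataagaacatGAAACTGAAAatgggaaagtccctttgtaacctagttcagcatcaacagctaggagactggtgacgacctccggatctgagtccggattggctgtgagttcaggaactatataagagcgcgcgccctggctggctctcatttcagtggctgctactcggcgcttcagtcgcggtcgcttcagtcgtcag
Cxcl10: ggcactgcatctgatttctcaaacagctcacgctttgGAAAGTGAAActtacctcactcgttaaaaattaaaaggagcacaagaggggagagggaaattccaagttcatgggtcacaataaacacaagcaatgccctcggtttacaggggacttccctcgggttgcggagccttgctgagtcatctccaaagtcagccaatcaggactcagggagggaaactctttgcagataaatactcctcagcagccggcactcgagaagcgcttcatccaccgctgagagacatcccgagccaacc
Ddx58: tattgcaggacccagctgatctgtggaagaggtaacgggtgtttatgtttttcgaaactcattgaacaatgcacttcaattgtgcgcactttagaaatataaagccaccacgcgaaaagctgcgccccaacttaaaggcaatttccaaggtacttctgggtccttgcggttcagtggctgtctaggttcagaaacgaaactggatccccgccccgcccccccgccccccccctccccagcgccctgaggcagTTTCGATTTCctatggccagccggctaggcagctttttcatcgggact
Ifih1: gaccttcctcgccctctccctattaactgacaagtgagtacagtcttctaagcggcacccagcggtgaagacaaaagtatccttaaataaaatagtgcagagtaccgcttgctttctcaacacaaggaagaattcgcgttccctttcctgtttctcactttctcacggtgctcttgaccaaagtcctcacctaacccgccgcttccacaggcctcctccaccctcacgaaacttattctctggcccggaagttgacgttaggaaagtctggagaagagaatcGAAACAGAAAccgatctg

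Another set of letters is the AP-1 site TGAGTCA, bound by Fos and Jun proteins. It occurred in 3.69% of tested promoters and in 5.17% of all 27025 promoter windows. It was in 5.29% of those of genes falling 2-fold or more and in 6.91% of the 304 falling 4-fold or more. Among those rising 2-fold or more it was in 3.7%. Of the other motifs counted, only the CCAAT box is given below. For Hephl1, the first of the ranked rises, the window holds a CCAAT box (CCAAT, in 38.2% of tested promoters and 39% of those rising 2-fold or more), at chr9:15112059-15112358 on the minus strand, with the match in capitals.
Hephl1: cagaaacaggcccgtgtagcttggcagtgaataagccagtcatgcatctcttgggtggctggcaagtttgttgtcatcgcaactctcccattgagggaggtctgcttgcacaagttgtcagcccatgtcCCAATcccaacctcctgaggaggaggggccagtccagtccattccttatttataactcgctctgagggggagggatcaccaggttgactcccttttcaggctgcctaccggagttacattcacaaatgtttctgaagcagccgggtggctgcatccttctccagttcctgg

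Markers of the cells around the adipocytes gave different answers. T and NK cell markers fell in 11 of 16 and rose in 0 (median -1.58), but 5 fell in the 6 libraries with muscle transcripts and 7 without BAT_30C replicate 3 or without BAT_5C replicate 2. Levels were low. Cd3g, of the T cell receptor complex, was at 0.336 to 0.982 CPM in BAT_30C and at 0.0832 to 0.168 CPM in BAT_5C (-2.40 ± 0.39, adjusted p = 5.47e-04), and Lck, the kinase next to it, fell by 1.72. Macrophage markers fell in 3 of 16 and rose in 0 (median -0.15; 12 fell under library totals and 5 without BAT_5C replicate 2), Ctss among them by 0.73, and B and plasma cell markers fell in 1 of 11 (3 without BAT_5C replicate 3). With all 8 libraries and TMM scaling, both lists fell less often than all genes (30.3%). Endothelial markers rose in 6 of 17 and fell in 8 (2 and 11 under library totals). Of them 5 fell in the 6 libraries with muscle transcripts, and 5 fell without any 1 of 4 libraries, namely BAT_30C replicates 3 and 4 and BAT_5C replicates 2 and 3. In whole tissue, fewer cells of a type and less RNA per cell cannot be told apart.

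**Figure D4:**
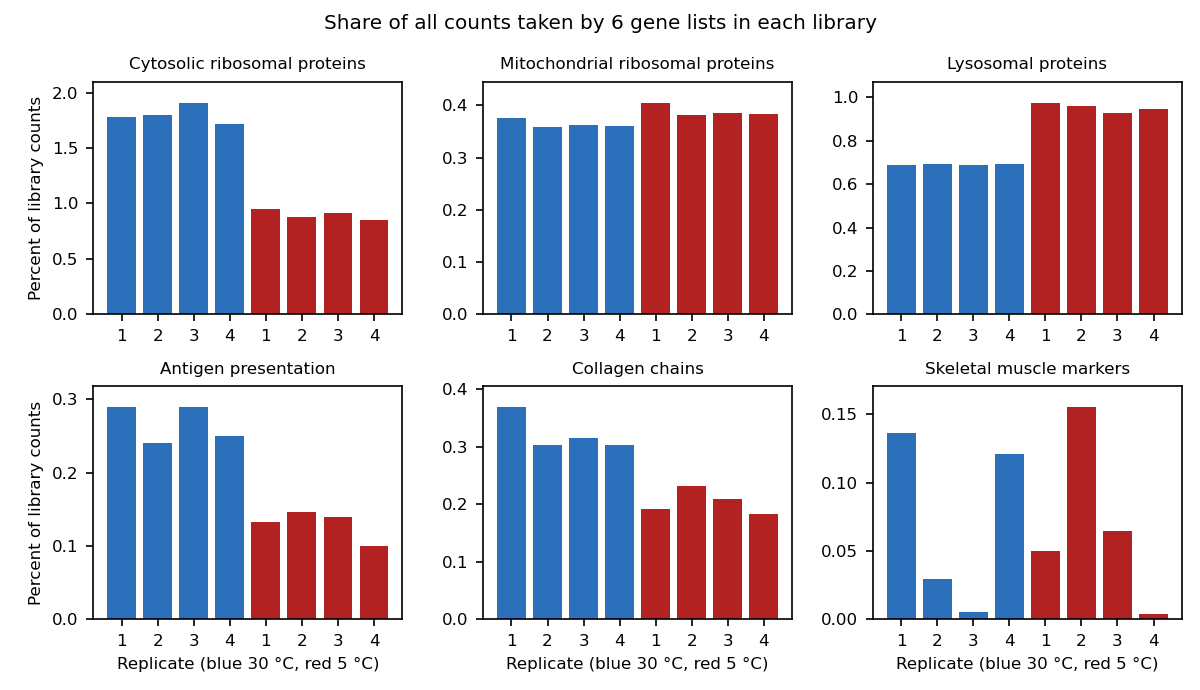
Percent of library counts (y axis, from 0) taken by 6 gene lists in each of the 8 libraries, blue at 30 °C and red at 5 °C. Cytosolic ribosomal, antigen presentation and collagen genes are lower in every BAT_5C library, and lysosomal and mitochondrial ribosomal genes higher. Skeletal muscle markers vary within both groups, from 0.0034 to 0.155%.

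Collagen chains, the fibres and sheets of the extracellular matrix, fell in 16 of 31 and rose in 2 (median -0.49; under library totals 25 fell and 1 rose, median -0.87), and their share of counts went from 0.303 to 0.368% down to 0.183 to 0.231%. Col12a1, of a collagen that bridges fibrils, was at 57.5, 42.5, 38.1 and 42.1 CPM and then at 6.91, 9.77, 7.28 and 11 CPM (-2.37 ± 0.18, adjusted p = 3.45e-06). Col4a5 fell by 2.59, Col23a1 by 1.95 and Col15a1 by 1.06, and Col7a1, an anchoring fibril, was 1 of the 2 that rose, by 1.41. Laminins, nidogens and other basement membrane genes fell in 11 of 20 and rose in 1 (median -0.41). Of matrix proteases, inhibitors and cross-linkers 12 of 45 rose and 17 fell, near the shares of all genes (7 and 26 under library totals). Timp4, an inhibitor of matrix proteases, fell by 1.57 and the protease Mmp2 by 0.76, whereas P4ha1, which hydroxylates collagen, rose from 21.6 to 27.5 CPM up to 74.6 to 99.7 CPM (1.81 ± 0.10, adjusted p = 6.23e-07). Fibroblast and progenitor markers fell in 5 of 16, near the share of all genes, and rose in 2 (median -0.17; under library totals 8 fell and 0 rose). Their rises numbered 1 in the 6 libraries with muscle transcripts and 4 without BAT_30C replicate 2.

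Cell division genes fell in 24 of 37 and rose in 5 (median -0.67), and 13 fell in the 6 libraries with muscle transcripts. Most were low at both temperatures. Ube2c, of mitotic exit, fell from 1.67 to 2.87 CPM down to 0.296 to 0.799 CPM, and Rrm2, of DNA precursor synthesis, by 1.40. Cdkn2c, an inhibitor of the cell cycle kinases, was the most abundant of the named falls at 99.1 to 166 CPM and fell by 1.68, and the helicase subunit Mcm4 fell by 0.69. Rrm1, the partner of Rrm2, rose by 0.69.

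**Figure D5:**
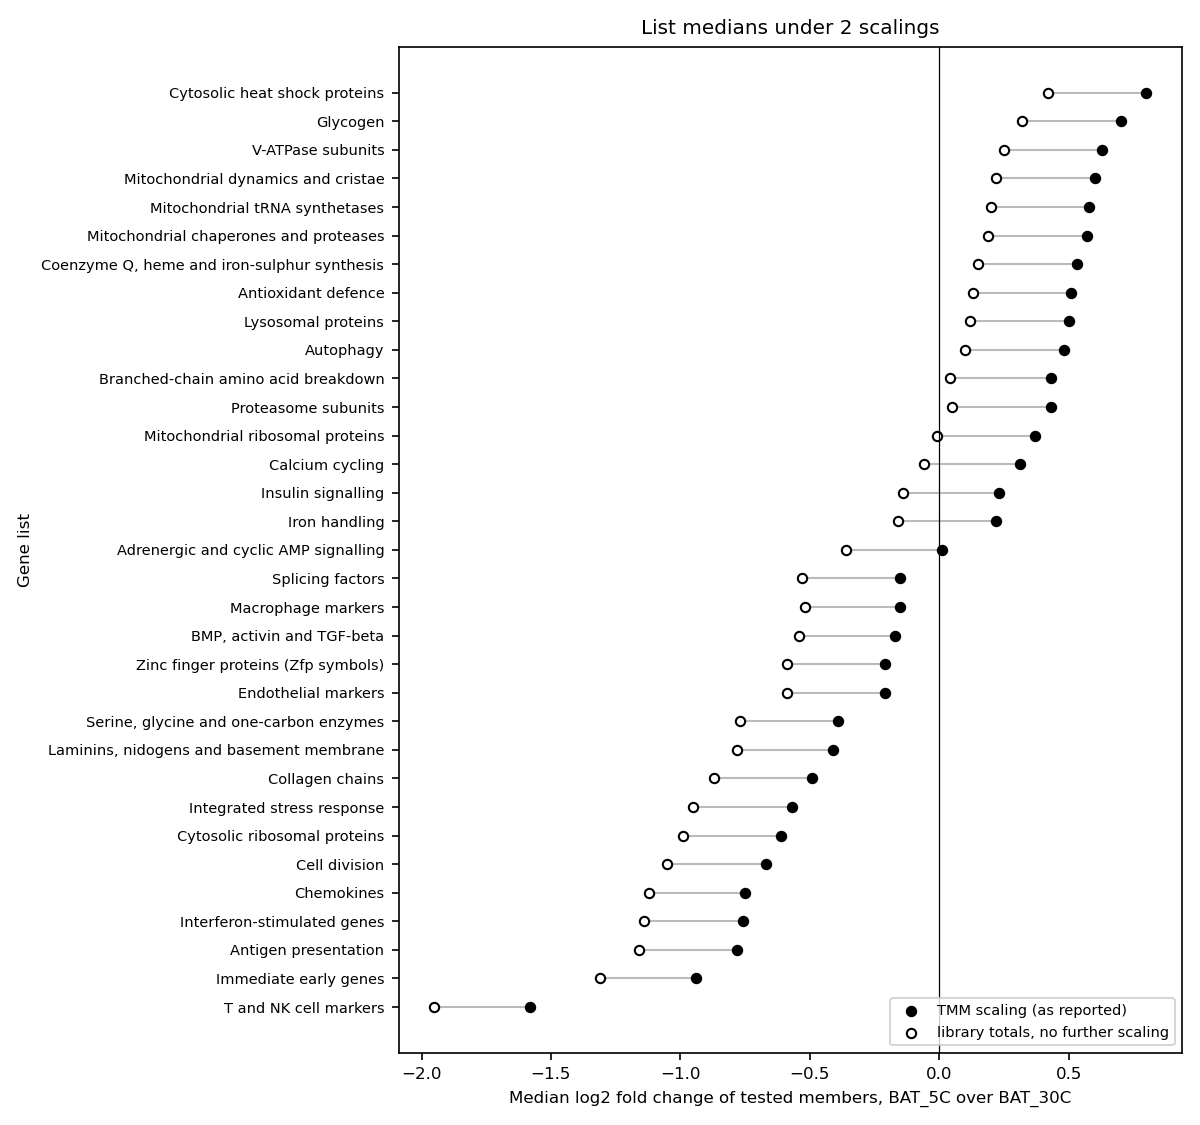
Median log2 fold change (x axis) of the tested members of 33 lists (y axis) under TMM scaling (filled) and under library totals (open). The shift is about the same for every list, and the medians of mitochondrial ribosomal proteins, calcium cycling, insulin signalling, iron handling and adrenergic signalling change sign, the first to -0.01.

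The spread between libraries differed between families. Over 9982 genes at 5 CPM or more the median SD of log2(CPM + 0.5) was 0.11 in BAT_30C and 0.0974 in BAT_5C. Mitochondrial ribosomal proteins were tighter, at 0.0651 and 0.0753, and cytosolic heat shock proteins wider, at 0.321 and 0.221.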

How the data were processed

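Poly(A) RNA of brown and inguinal white fat was sequenced in 16 libraries. The authors deposited raw counts per Ensembl gene. Trim Galore and TopHat are named in the submitters' processing notes without versions, and for the counting program, strand setting and genome build the answer is not given in the sources used here. Reads of genes with near-identical or overlapping copies may therefore be split or shared. Some named genes also lie near a far more abundant gene. Adcy10 lies 3969 bases from Mpc2 (mean 389 CPM) and Col7a1 3963 bases from Uqcrc1 (mean 1307 CPM). Tjp3, Cpne9, Nrxn2, Nfe2l3, Atp6v1c2, Aldh1l2, Cbl, Cd3g and Cxcl10 have such a neighbour too. Whether reads of these neighbours entered the counts was not tested. Rows without a symbol held 0.0403 to 0.05% of counts.

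The 8 brown fat libraries (54264023 to 67127591 counts) were grouped by title. Genes passing edgeR's filterByExpr (at least 10 counts) were fitted by edgeR 4.0.16 (R 4.3.3) with TMM scaling and no covariates, by glmQLFTest, adjusted by Benjamini-Hochberg over all genes tested (threshold 0.05). The steps were tested on simulated data in which few genes changed, evenly up and down. That test therefore does not bear on the scaling where most genes change. CPM are counts scaled by the TMM-adjusted library size, and SE are those of the log2 fold change. Alternatives were library totals, RLE factors, DESeq2 1.42.0, limma-voom 3.58.1, other filters and thresholds, a replicate block and left-out libraries. The 6-library alternative was chosen after seeing the data.

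Genes were named by rank (the 12 largest rises and falls, the 10 largest gains and losses in CPM, with at least 5 CPM in the higher group and groups apart) or as up to 4 members per list and direction with the smallest adjusted p. Members and lists were chosen with earlier results of these data known. Some genes belong to several lists, so the counts of lists are not independent. Psmb8 and Psmb9, for example, count in the proteasome, interferon-stimulated and antigen presentation lists. Promoter windows come from RefSeq (GRCm38.p6), matched by symbol for 11531 of 16213 genes.

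Same-numbered libraries did not deviate together (residual correlations 0.0352, 0.0113, -0.213 and -0.367), so replicate numbers were not taken as pairs. The most similar libraries of a group differed by 21.4 times the counting noise (chi-square per degree of freedom), so none was counted as a repeat.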

Additional observations from a re-analysis of the deposited data

Results flagged for a closer look

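For some named genes 1 of the 4 libraries of a group lay apart from the other 3, its gap to the nearest, as a part of the group's range, being above Dixon's 95% critical value for 4 samples. Chance flags about 1 in 20 groups. In BAT_30C this held for the following genes. Bmp8b was at 3.58 CPM in replicate 1 against 0.272 to 0.714 CPM in the others. Ppp1r1b was at 55.5 CPM in replicate 1 against 11.1 to 17.1 CPM in the others. Nrxn2 was at 12 CPM in replicate 1 against 3.89 to 5.24 CPM in the others. Pgd was at 196 CPM in replicate 1 against 96.9 to 113 CPM in the others. Cars2 was at 13.6 CPM in replicate 3 against 15.4 to 15.8 CPM in the others. Egr1 was at 115 CPM in replicate 3 against 23.1 to 37.3 CPM in the others. Bhlhe40 was at 48.3 CPM in replicate 1 against 12.6 to 17.7 CPM in the others. Col4a5 was at 13.2 CPM in replicate 3 against 9.66 to 10.1 CPM in the others. Mccc1 was at 103 CPM in replicate 1 against 88.1 to 89.6 CPM in the others.

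In BAT_5C it held for the following genes. Bmp8b was at 60.9 CPM in replicate 1 against 96.1 to 97.1 CPM in the others. Rab17 was at 0.266 CPM in replicate 2 against 0.021 to 0.0369 CPM in the others. Ppp1r1b was at 0.111 CPM in replicate 4 against 0.166 to 0.171 CPM in the others. Ivns1abp was at 103 CPM in replicate 3 against 117 to 120 CPM in the others. Adipoq was at 755 CPM in replicate 1 against 566 to 592 CPM in the others. Coq3 was at 52.8 CPM in replicate 2 against 55 to 55.5 CPM in the others. Hfe was at 36.6 CPM in replicate 1 against 32.8 to 33.2 CPM in the others. Myc was at 1.72 CPM in replicate 1 against 3.38 to 3.69 CPM in the others. Ebf1 was at 106 CPM in replicate 4 against 95.1 to 96 CPM in the others. H2-D1 was at 231 CPM in replicate 4 against 300 to 312 CPM in the others. B2m was at 273 CPM in replicate 4 against 387 to 404 CPM in the others. Timp4 was at 10.4 CPM in replicate 2 against 16.3 to 17.5 CPM in the others. Cdkn2c was at 50.1 CPM in replicate 1 against 33.3 to 34.4 CPM in the others. Ddx58 was at 23.7 CPM in replicate 2 against 17.4 to 18.4 CPM in the others. The library totals of BAT_5C also met it, with 54264023 counts in replicate 1 against 64876907 to 66109342 counts in the others.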

How the results depend on the processing

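For the 164 genes refitted one by one (not those given by counts alone, left out of the ranking, or Insr) the direction was the same under each of the 18 alternatives run, and so was the side of the threshold, except for Lck (adjusted p = 0.0555 by edgeR, log2 fold change -1.68) and Cxcl10 (0.0694, -1.86) in the 4 libraries whose labels all match. The 164 genes were chosen by their values in the main fit on the same libraries, so stable calls were likely in advance. The counts of rising and falling genes moved by more than 1.5 times under library totals (2323 and 8831), and the falling count did in those 4 libraries (2707, with fewer samples). Leaving out 1 library at a time gave 4354 to 4812 rising genes, 4233 to 4668 falling and 2968 to 3315 changed 2-fold or more. In the 6 libraries with muscle transcripts 4084 rose and 3902 fell. With the replicate number as a block 4524 rose, 4567 fell and 3050 changed 2-fold or more, and the block changed no call of those 164 genes. Depth limits genes under 1 CPM most.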
